A study of Mus musculus with 7 samples.

Results

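Cytoplasmic ribosomal proteins are the protein components of the ribosome that translates nuclear-encoded mRNAs. The large (60S) subunit joins amino acids into protein and the small (40S) subunit reads the mRNA, and each subunit needs close to 1 copy of nearly every one of its proteins. The mRNAs of these proteins start with a run of pyrimidines, the 5′ terminal oligopyrimidine (TOP) motif, through which mTORC1 and LARP1 control their translation, and they are among the most abundant mRNAs of growing cells, including neurons that extend axons and dendrites after birth. The genes studied here were the protein-coding genes whose mouse symbol is Rpl or Rps followed by a number, *Rplp0* to *Rplp2*, or *Rpsa*, without the S6 kinases. Of the 52636 genes counted, 92 matched by name, and the 86 with at least 10 counts in every library were kept, 52 of the large and 33 of the small subunit. The 86th gene, *Rps19bp1*, matched by name only: it encodes a protein that binds RPS19 and is not part of the ribosome. The subunit was assigned by name. The 52 include *Rpl10-ps3*, *Rpl9-ps6* and *Rpl36a-ps1*, annotated as protein-coding copies of *Rpl10*, *Rpl9* and *Rpl36a*. Their coding sequences were identical to these parents at 100%, 99.8% and 97.8% of aligned bases. Each parent and its copy enter the 86 separately.

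The 6 matching genes left out were *Rpl9-ps1* and *Rpl10l*, with 0 counts in every library, *Rpl36-ps4* and *Rps12-ps3*, with 0 to 2 and 0 to 4 counts, *Rpl3l*, with 2 to 10, and *Rpl39l*, with 2 to 16. *Rpl3l* is a paralog of striated muscle, and *Rpl10l* and *Rpl39l* are paralogs of the male germline. Just inside the limit lay *Rpl10-ps3* with 10 to 35 counts and *Rpl23a* with 22 to 75. *Fau* and *Rack1*, whose names the rule does not match, also encode ribosomal proteins and are given with the related genes further on.

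RNA from the dorsal midbrain of newborn mice was sequenced as polyA-selected, strand-specific libraries, 1 per mouse. The 3 controls carried 1 conditional and 1 wild-type allele of *Brn3b* (*Pou4f2*), a POU-domain transcription factor, and the 4 conditional knockout (cKO) mice carried 1 conditional and 1 null allele. Mice of both groups carried the En1-Cre driver, which is active in the midbrain and the hindbrain, and their recombined conditional allele expresses alkaline phosphatase from the *Brn3b* locus. The controls were therefore heterozygous for *Brn3b* in Cre-expressing cells rather than wild type. Controls A2 and A6 were taken at postnatal day 4 (P4) and A4 at P3, cKO mice B7 and B9 at P2 and B1 and B8 at P4, so genotype and the age P2 cannot be told apart. Reads on genes numbered 23588248, 40411968 and 26577011 in the controls A2, A4 and A6, and 28116582, 67792192, 39251318 and 87572085 in the cKO mice B1, B7, B8 and B9.

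*Brn3b* checked the labels. It was at 46.5, 47.4 and 45.8 CPM (counts per 1000000, scaled with edgeR's TMM library sizes) in A2, A4 and A6, and at 9.65, 9.67, 10.6 and 11.6 CPM in B1, B7, B8 and B9. Every cKO mouse lay below every control, with a log2 fold change of −2.16 (standard error 0.132). Its adjusted p was 5.66e-04 in the quasi-likelihood test of edgeR, Benjamini-Hochberg adjusted over all genes tested. The tissue label was checked with 8 midbrain markers, including *En1*, *En2* and *Otx2*. Their summed level was 447, 526 and 502 CPM in the controls A2, A4 and A6 and 431, 478, 460 and 551 CPM in B1, B7, B8 and B9. These sums overlapped, but 3 of the 8 markers were higher in cKO mice at an unadjusted p under 0.05 in edgeR, against 16.7% of all genes tested. The log2 fold changes of the 8 ran from −0.30 to 1.52, and DESeq2 called 1 higher and edgeR 0. The 4 telencephalon markers summed to 10.4 to 23.4 CPM. The hindbrain Hox genes *Hoxa3* and *Hoxb2* had no count in any library, and the 4 Hox markers together reached at most 0.141 CPM, in B9.

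B8 stood apart from the other cKO mice in the ribosomal protein genes. These genes took 0.616%, 0.778% and 0.661% of the counts on genes in A2, A4 and A6, and 0.389%, 0.327%, 0.645% and 0.401% in B1, B7, B8 and B9. The widest 95% Wilson interval of these shares, in A2, ran from 0.613% to 0.619% and covers counting error only. B8 thus lay among the controls, and B1, B7 and B9 lay below every control. The mean share was 0.685% ± 0.0839 (SD, n = 3) in controls and 0.441% ± 0.140 (SD, n = 4) in cKO mice. The cKO mean was thus 64.3% of that of the controls. Without B8 the cKO mean was 0.372% ± 0.0394 (SD, n = 3). *Brn3b* was as low in B8 as in the other cKO mice.

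Both subunits took part in this pattern. The large-subunit genes took 0.382% ± 0.0475 (SD, n = 3) of the counts in controls and 0.248% ± 0.0763 (SD, n = 4) in cKO mice, and the small-subunit genes 0.300% ± 0.0360 (SD, n = 3) and 0.191% ± 0.0631 (SD, n = 4). The ratio of the large to the small subunit was 1.29, 1.29 and 1.25 in A2, A4 and A6 and 1.31, 1.37, 1.28 and 1.29 in B1, B7, B8 and B9. It varied less between mice than the share itself and was highest in B7.

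**Figure D1:**
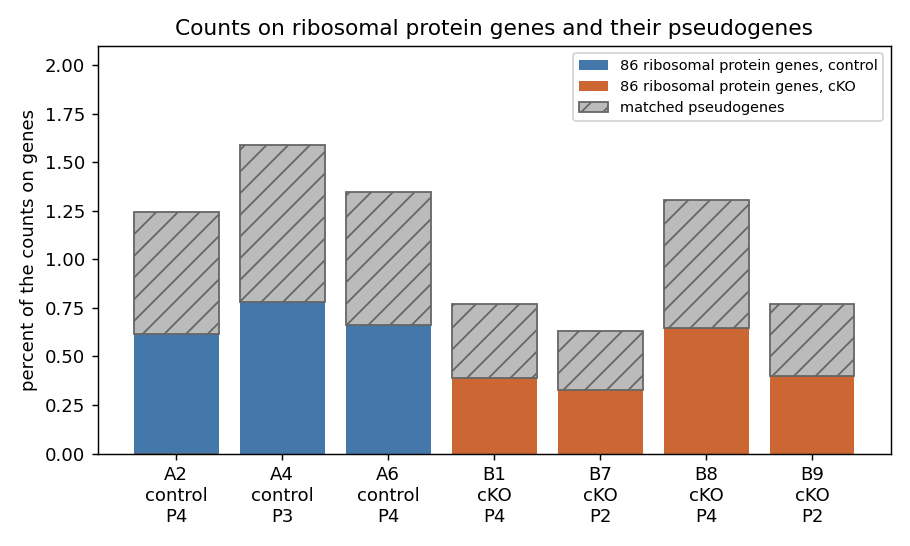
Share of the counts on genes (percent, y axis) taken by the 86 ribosomal protein genes (solid bars) and by pseudogenes that match their mRNAs (hatched, stacked on top) in each of the 7 mice, with genotype and postnatal day under each bar. The solid bars of B1, B7 and B9 lie between 0.327% and 0.401%, and B8 at 0.645% lies between A2 and A6.

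The design asks which genes differ between control and cKO dorsal midbrain. With all 7 mice, 83 of the 86 ribosomal protein genes had a log2 fold change below 0, against 49.8% of all genes tested, and the median was −0.63 against 0.003 over the 21817 genes tested. The lowest values were −1.18 for *Rps23*, −1.11 for *Rpl41* and −1.10 for *Rps16*, and the 3 values above 0 were those of *Rpl5*, *Rps15a* and *Rpl9*. In a fit with the counts of pseudogenes that match the mRNAs added, the former were −1.06, −1.12 and −0.80. The latter were then −0.37, −0.12 and −0.47. In edgeR's quasi-likelihood test 0 of the 86 had an adjusted p under 0.05 (0.00458% of all genes tested did, namely *Brn3b*), and their adjusted p-values ran from 0.138 to 0.969. At an unadjusted p under 0.05, 58 of the 86 were lower in cKO mice, against 13.7% of all genes tested, and 0 were higher, against 16.7%. In bulk tissue, fewer cells of a type and less RNA per cell cannot be told apart.

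The count of genes past the threshold differed between the tools and turned on single mice. DESeq2 called 18 of the 86, all of them lower in cKO mice, against 3.04% of the genes to which it gave an adjusted p. limma-voom with sample quality weights called 75 lower and 1 higher, against 24.3% of all genes called lower. It gave B8 a weight of 0.167 and the other mice weights from 0.857 to 2.89, so its count is not that of another test on equally weighted mice. Without B8, edgeR called 71 of the 86 lower, against 23.1% of all genes tested, and 1 higher, *Rps15a*, and the median log2 fold change was −0.85. Leaving out each of the other mice in turn gave 0 calls in edgeR, with 13 of the 86 at an unadjusted p under 0.05 without A4, against 10.8% of all genes tested in either direction, and 47 without A2, against 21.9%. The DESeq2 count was 71 without B8 and 1 without A2. Of the genes to which these fits gave an adjusted p, 39.9% and 2.95% were called, in either direction. The count was 0 without A4, A6, B1, B7 or B9, where 0.0612% to 0.982% of the genes given an adjusted p were called. There 19 (without A4) to 49 (without A6) of the 86 had an unadjusted p under 0.05, against 9.29% and 14.3% of all genes. Against the P2 cKO mice B7 and B9 alone, edgeR called 70 lower, against 24.0% of all genes tested, and 1 higher, *Rps15a*, with a median of −0.89. Against the P4 cKO mice B1 and B8 alone, 0 passed edgeR's test, 5 had an unadjusted p under 0.05, against 3.69% of all genes tested, and the median was −0.39. That fit kept the P3 control A4. With the P4 mice A2, A6, B1 and B8 only, 0 had an unadjusted p under 0.05, against 1.18% of all genes tested. The median was then −0.29. Whether the P2 and the P4 mice differ was not tested.

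Mouse by mouse, the median of the 86 genes relative to the control mean on the log2 CPM scale was −0.13, 0.18 and −0.06 in A2, A4 and A6 and −0.75, −0.97, −0.09 and −0.74 in B1, B7, B8 and B9. The P4 mouse B1 thus lay near the P2 mice, and the P4 mouse B8 within the controls. Every cKO mouse lay below every control for 23 of the 86 genes, against 8.01% of all genes tested. With B8 set aside the count was 77, against 28.0% of all genes tested.

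**Figure D2:**
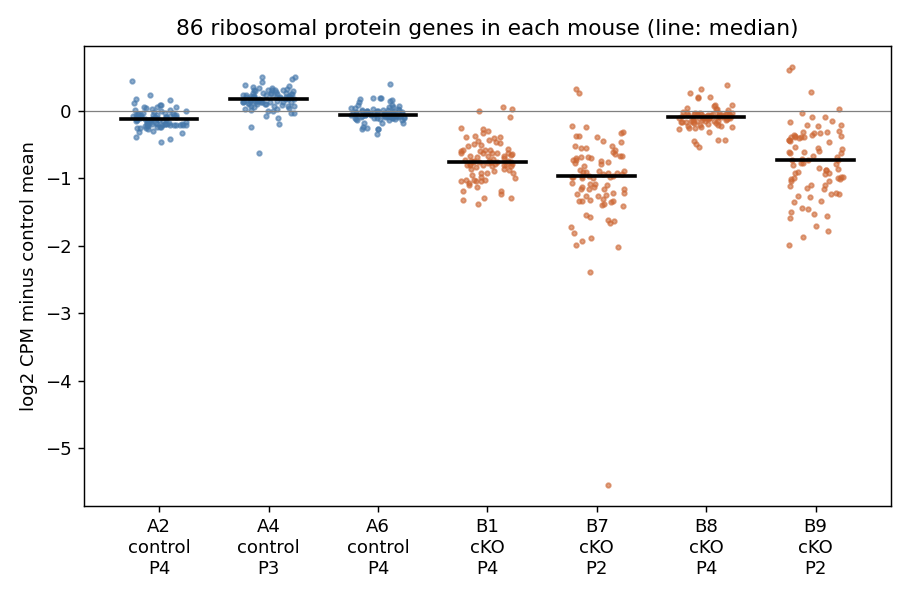
Each point is 1 of the 86 ribosomal protein genes in 1 mouse, as log2 CPM minus the mean of the 3 controls (y axis), and the black lines are medians. The medians of B1, B7 and B9 are −0.75, −0.97 and −0.74, that of B8 is −0.09, and the single point far below the others in B7 is *Rps3a1*.

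The P stalk is the flexible arm of the large subunit that recruits translation factors. Of its genes, *Rplp1* had the 4th lowest log2 fold change of the 86 genes, and *Rplp0* lay above their median. Whether the stalk genes differ from each other was not tested. *Rplp1* (ENSMUSG00000007892.8, minus strand of chromosome 9 of GRCm38, chr9:61913284-61914542) was at 290, 394 and 316 CPM in A2, A4 and A6 and at 162, 83.3, 290 and 95.7 CPM in B1, B7, B8 and B9. B8 was at the level of A2, and the other 3 cKO mice lay well below the controls. Controls had a mean of 334 ± 54.0 CPM (SD, n = 3) against 158 ± 94.8 CPM (SD, n = 4) for cKO mice, with a log2 fold change of −1.08 (standard error 0.378, edgeR adjusted p = 0.138, DESeq2 adjusted p = 0.0435). *Rplp2*, its partner in the stalk dimers, was at 17.9, 24.0 and 20.1 CPM in the controls A2, A4 and A6 and at 10.8, 8.12, 18.5 and 8.50 CPM in B1, B7, B8 and B9. *Rplp0*, the base of the stalk, went from 334 ± 42.8 CPM (SD, n = 3) to 230 ± 55.9 CPM (SD, n = 4), with a log2 fold change of −0.54 (standard error 0.187). Without B8, the log2 fold changes were −1.56 for *Rplp1*, −1.19 for *Rplp2* and −0.72 for *Rplp0*, all called lower by edgeR.

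Rpl5 and Rpl11 form the 5S ribonucleoprotein, which joins the large subunit and, when free, binds the p53 inhibitor MDM2. *Rpl5* (ENSMUSG00000058558.12, chr5:107900502-107909005) was at 16.2, 13.1 and 17.8 CPM in A2, A4 and A6 and at 15.5, 18.6, 17.8 and 23.7 CPM in B1, B7, B8 and B9. The groups overlapped, and the log2 fold change of 0.27 (standard error 0.187, edgeR adjusted p = 0.329) was the highest of the 86. It was −0.37 when the counts of its matched pseudogenes were added and −0.03 in the P4 mice alone. Exons of *Rpl5* overlap *Fam69a* on the other strand, and the strand setting of the authors' counting is not stated, so its reads and those of *Fam69a* may be mixed. *Rpl11* had a log2 fold change of −0.52 (standard error 0.2498, edgeR adjusted p = 0.187).

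The other large-subunit proteins included 8 of the peptide exit tunnel and its rim, through which the new protein leaves the ribosome. In edgeR all 8 were below 0, with log2 fold changes from −0.89 for *Rpl39* to −0.15 for *Rpl4*, with a median of −0.57. At an unadjusted p under 0.05, 3 of the 8 were lower, against 67.4% of the 86 genes and 13.7% of all genes tested. *Rpl39*, at the narrow part of the tunnel, was at 30.6, 34.4 and 29.6 CPM in the controls A2, A4 and A6 and at 14.7, 12.3, 26.5 and 14.6 CPM in B1, B7, B8 and B9. Its cKO mice lay below every control, B8 included. *Rpl4*, which also lines the tunnel, was at 372, 459 and 390 CPM in A2, A4 and A6 and at 329, 341, 387 and 411 CPM in B1, B7, B8 and B9, so its groups overlapped. *Rpl41* (ENSMUSG00000093674.7, chr10:128548114-128549305), which encodes a very short basic protein at the interface of the subunits, was at 363, 537 and 412 CPM in the controls and at 172, 117, 388 and 132 CPM in B1, B7, B8 and B9. Its log2 fold change was −1.11 (standard error 0.377, edgeR adjusted p = 0.138, DESeq2 adjusted p = 0.0391), and −1.65 without B8. *Rpl8*, with the third highest level per exon length, was at 451, 646 and 486 CPM in the controls and at 275, 242, 481 and 284 CPM in B1, B7, B8 and B9, again with B8 among the controls.

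Of the 33 small-subunit genes, 32 had a log2 fold change below 0, with a median of −0.71, and for the 52 large-subunit genes the median was −0.61. Whether the subunits differ was not tested. The 14 genes of the 40S head, the lobe that closes over the mRNA and the tRNAs, were all below 0, from −1.10 to −0.39, and 13 were lower at an unadjusted p under 0.05, against the same 67.4% and 13.7%. In the head, *Rps15* (ENSMUSG00000063457.14, chr10:80292453-80294114) was at 226, 320 and 250 CPM in A2, A4 and A6 and at 111, 85.5, 248 and 104 CPM in B1, B7, B8 and B9. *Rps16*, whose tail reaches the P-site tRNA, was at 2.78, 4.05 and 5.08 CPM in the controls and at 2.101, 1.26, 3.20 and 0.940 CPM in B1, B7, B8 and B9, and *Rps29* had a log2 fold change of −1.01 (standard error 0.468). In the controls, only 2.68% of the counts on *Rps16* and its matched pseudogenes were on the gene, and 1.04% for *Rps29*. With the pseudogene counts added, the log2 fold changes were −0.80 and −1.20. *Rps23* (ENSMUSG00000049517.8, chr13:90922958-90924950), a protein of the decoding center, had the lowest value of the 86. It was at 4.07, 5.12 and 5.33 CPM in A2, A4 and A6 and at 1.82, 1.97, 3.55 and 1.28 CPM in B1, B7, B8 and B9, with no overlap. Its log2 fold change was −1.18 (standard error 0.334, edgeR adjusted p = 0.138, DESeq2 adjusted p = 0.0246), at 98 to 205 counts per control library.

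*Rps28*, a protein of the 40S head near the mRNA exit, was singled out after its values were seen. It was at 5.19, 5.17 and 5.003 CPM in A2, A4 and A6 and at 3.03, 2.96, 3.52 and 3.15 CPM in B1, B7, B8 and B9, so that B8 lay with the other cKO mice. Its log2 fold change was −0.69 (standard error 0.186, edgeR adjusted p = 0.138, DESeq2 adjusted p = 0.0239). Its exons overlap *Kank3* on the other strand.

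At the other end, *Rps15a* (ENSMUSG00000008683.16, chr7:118104372-118116188) was at 122, 131 and 123 CPM in A2, A4 and A6 and at 130, 156, 122 and 196 CPM in B1, B7, B8 and B9. The log2 fold change was 0.27 (standard error 0.173, edgeR adjusted p = 0.294). Without B8 it was 0.36 (edgeR adjusted p = 0.0495), and after the correction for GC content and length it was −0.03. *Rps15a* has the longest merged exons of the 86 genes, 6270 bases. *Rps6*, the ribosomal substrate of the S6 kinases, was at 2.74, 2.42 and 2.74 CPM in the controls and at 2.67, 2.11, 2.24 and 2.35 CPM in B1, B7, B8 and B9, with a log2 fold change of −0.17 (standard error 0.219). Only 3.48% of the counts on *Rps6* and its matched pseudogenes were on the gene in the controls. With the pseudogene counts added, its log2 fold change was −0.27. *Rpl17* at −0.16 and *Rpl9* at 0.01 also had overlapping groups. *Rpl9-ps6*, also among the 86 genes, was identical to *Rpl9* at 575 of 576 aligned coding bases. It had 681 to 2732 counts per library, against 134 to 684 for *Rpl9*, and a log2 fold change of −0.58. How the reads of *Rpl9* and *Rpl9-ps6* were divided was not tested.

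Paralogs of standard ribosomal protein genes were read beside their parents, and whether they replace them in the ribosome was not tested. *Rpl22*, an RNA-binding protein of the large subunit, was at 176, 174 and 175 CPM in A2, A4 and A6 and at 126, 128, 154 and 164 CPM in B1, B7, B8 and B9. Its control values were close together and all 4 cKO values lay below them, with a log2 fold change of −0.29 (standard error 0.133, edgeR adjusted p = 0.168). *Rpl22l1*, whose level RPL22 is known to repress, was at 19.5, 20.01 and 17.1 CPM in the controls and at 11.5, 8.38, 18.1 and 10.4 CPM in B1, B7, B8 and B9, with a log2 fold change of −0.64 (standard error 0.246). *Rpl7l1* had −0.29 and its parent *Rpl7* −0.58. *Rpl36al* had −1.08 and *Rpl36a* −0.47, and *Rps27l*, a p53 target, had −0.73. *Rps4l*, the most abundant gene of the paralog list, is annotated as a transcribed processed pseudogene and so is not among the 86. It was at 57.0, 72.2 and 64.5 CPM in A2, A4 and A6 and at 50.2, 37.9, 65.2 and 41.8 CPM in B1, B7, B8 and B9, with a log2 fold change of −0.41 (standard error 0.194) that was 0.17 after the correction for length and GC content. All 6 paralogs and all 9 parents tested were below 0 in edgeR, and without B8 edgeR called 6 and 8 of them lower. Among the 86 genes 96.5% were below 0 and 82.6% were called lower without B8, and among all genes tested 49.8% and 23.1%. The coding sequence of *Rpl22l1* was identical to that of *Rpl22* at 67.5% of aligned bases, and that of *Rpl7l1* to *Rpl7* at 54.4%, so these pairs are told apart by reads. *Rpl36al* and *Rpl36a* shared 87.7%.

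The 4 genes on the X chromosome, *Rpl10*, *Rps4x*, *Rpl36a* and *Rpl39*, had log2 fold changes of −0.33, −0.52, −0.47 and −0.89. *Rps19bp1*, which is not a ribosomal protein, was at 24.3, 34.8 and 26.3 CPM in A2, A4 and A6 and at 16.0, 12.8, 26.8 and 15.3 CPM in B1, B7, B8 and B9. Its log2 fold change was −0.69 (standard error 0.254).

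Gene length moved with the fold change in all protein-coding genes, and most ribosomal protein mRNAs are short. Among the other protein-coding genes tested, the median log2 fold change was −0.68 for 342 genes with merged exons under 1000 bases, −0.57 for 701 genes of 1000 to 1500, −0.43 for 999 genes of 1500 to 2000, −0.30 for 2407 genes of 2000 to 3000 and 0.15 for 10978 genes of 3000 or more. The ribosomal protein genes of the same lengths had medians of −0.73 (n = 15), −0.71 (n = 16), −0.62 (n = 19), −0.57 (n = 20) and −0.47 (n = 16). In the shortest class they thus lay close to other genes of their length and within the quartiles of those genes, −0.93 to −0.28. From 1000 to under 2000 bases their medians also lay within the quartiles. In the classes of 2000 to 3000 and of 3000 or more bases they lay below the lower quartiles of −0.53 and −0.15. In B8 the shortest class was near 0 for both kinds of gene, at −0.09 for the ribosomal protein genes and −0.03 for the others relative to the control mean, and in B7 it was −1.33 and −1.08. Correcting each library for exon length and GC content left a median log2 fold change of −0.39 for the 86 genes, with 77 below 0 and 0 past edgeR's threshold (43 at an unadjusted p under 0.05, against 25.6% of all genes tested in either direction). It put *Rpl8* at −0.18, *Rps15* at −0.35 and *Rplp1* at −0.61. Across the 86 genes, which share the same libraries, log2 fold change and log2 exon length had a Pearson r of 0.45 and a Spearman rho of 0.42. These are descriptions, since genes of the same libraries are not independent.

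**Figure D3:**
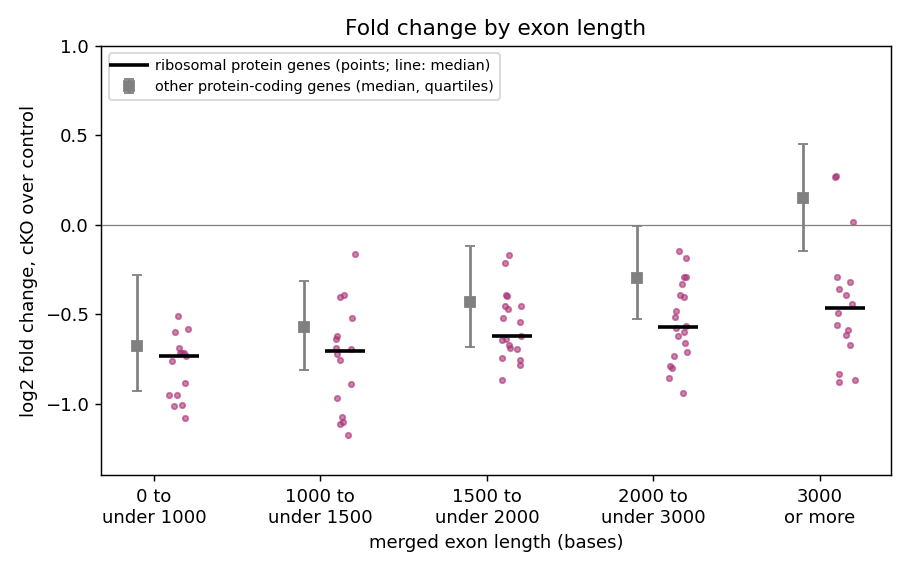
Log2 fold change of cKO over control (y axis) in classes of merged exon length in bases (x axis), with each ribosomal protein gene as a point, their median as a black line, and the median and quartiles of the other protein-coding genes in grey. The medians of the other genes go from −0.68 to 0.15, and those of the ribosomal protein genes from −0.73 to −0.47.

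Other values moved with the same mice. Pairs with no unique alignment made up 10.9%, 11.1% and 10.6% of all read pairs in A2, A4 and A6 and 9.76%, 8.14%, 10.9% and 8.33% in B1, B7, B8 and B9. Mitochondrial genes took 4.77%, 4.68% and 4.59% of the counts in the controls and 4.30%, 4.01%, 4.61% and 4.29% in B1, B7, B8 and B9. Both shares were lower in B1, B7 and B9 than in every control, and B8 lay among the controls. The 6 neuron markers, of which *Stmn2* was the most abundant and none was at 0, summed to 4792, 5505 and 4646 CPM in the controls and to 3836, 3949, 4709 and 3695 CPM in B1, B7, B8 and B9, with 5 of 6 below 0 in log2 fold change. The 6 astrocyte markers, led by *Slc1a3* and with none at 0, summed to 903, 823 and 855 CPM in the controls and to 1072, 1063, 884 and 1001 CPM in B1, B7, B8 and B9, with 3 of 6 below 0. The 5 erythroid markers, led by *Hbb-bs* and with none at 0, summed to 156, 496 and 132 CPM in the controls and to 177, 61.6, 179 and 57.7 CPM in B1, B7, B8 and B9, with 5 of 5 below 0. The 6 microglia markers, led by *Csf1r* and with none at 0, summed to 92.8, 104 and 123 CPM in the controls and to 92.1, 74.5, 98.5 and 77.4 CPM in B1, B7, B8 and B9, with 4 of 6 below 0. DESeq2 called 1 of the microglia genes lower and 1 of the astrocyte genes higher, and edgeR called none of these markers. At an unadjusted p under 0.05 in edgeR, 3 neuron, 2 microglia and 1 astrocyte marker were lower and 2 astrocyte markers higher. Among all genes tested, 13.7% were lower and 16.7% higher at that cutoff. Of the 19092 genes given an adjusted p, DESeq2 called 580 lower and 1414 higher. The neuron and microglia sums were lowest and the astrocyte sum highest in B1, B7 and B9, with B8 among the controls, while the erythroid sum was low in the P2 mice B7 and B9 and not in B1. The part of these values in the result was not tested.

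The levels of these genes ranged widely, although the proteins are needed in near equal numbers. Per exon length, *Rplp1* had the highest mean level, at 668 ± 108.1 CPM per kb (SD, n = 3) in controls and 316 ± 190 (SD, n = 4) in cKO mice. *Rps15* followed at 421 ± 77.7 and 218 ± 119 CPM per kb, *Rpl8* at 388 ± 76.2 and 236 ± 79.6, and *Rpl41* at 375 ± 76.8 and 173 ± 107.9. Between mice the levels of these 3 overlapped, but within every mouse and on this scale *Rpl8* lay above *Rpl41*, and in every control *Rps15* lay above both. The order depended on the length used: per kb of mRNA the control means were 804 CPM for *Rpl41*, 668 for *Rplp1*, 620.2 for *Rpl8* and 531 for *Rps15*. The lowest levels were 0.853 ± 0.0471 CPM per kb for *Rpl10-ps3*, 1.27 ± 0.459 for *Rpl23a*, 1.66 ± 0.115 for *Rps6*, 1.78 ± 0.280 for *Rps10* and 1.88 ± 0.239 for *Rpl35* in controls (SD, n = 3). *Rpl23a*, *Rps6*, *Rps10* and *Rpl35* encode core proteins, so the range of levels is that of the counted reads and not of the proteins. The exons of *Rps10* overlap the readthrough gene *RPS10-NUDT3* on the same strand and *Gm15420* on the other.

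Ribosomal protein genes have left many processed pseudogenes in the mouse genome, and a read that aligns equally well to a gene and a pseudogene is not counted for either. In the annotation, 926 pseudogenes shared at least 50 words of 31 bases with an mRNA of the 86 genes, and 835 of these were in the count files. The median gene had an exact copy in another gene's transcripts for 40% of the 100-base windows of its mRNA, and 35 of the 86 genes for over 50% of them. The 18 genes with under 20% of windows copied had a median control level of 244 CPM per kb of mRNA, the 45 genes between 20% and 60% one of 36.0, and the 23 genes with 60% or more one of 17.9. Across the 86 genes, level per mRNA length and share of copied windows had a Pearson r of −0.50 and a Spearman rho of −0.47, again as a description. The median log2 fold change was −0.72 in the genes with under 20% of windows copied and −0.40 in those with 60% or more, and 11 of the 14 genes that edgeR did not call without B8 belonged to this class.

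**Figure D4:**
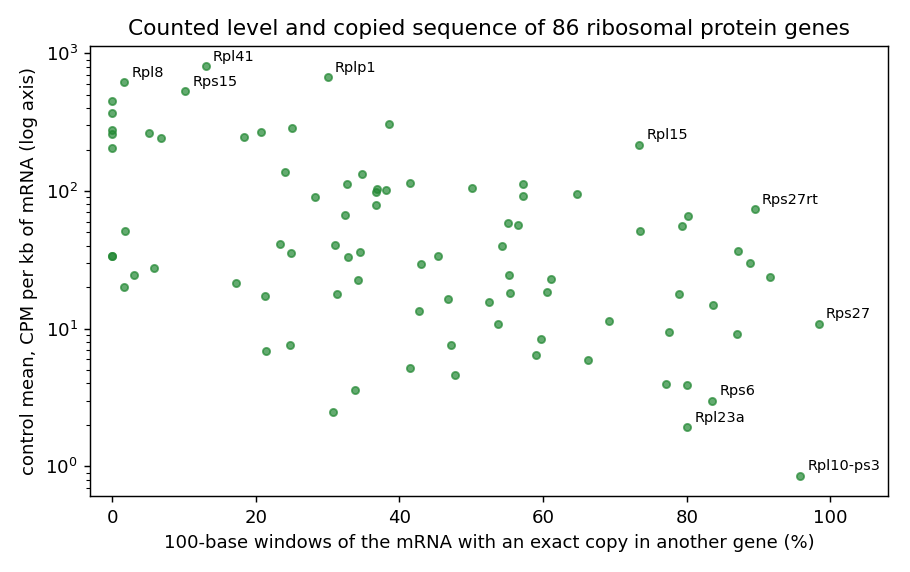
Mean level in the 3 controls, in CPM per kb of mRNA (y axis, log scale), against the percent of the 100-base windows of the mRNA that have an exact copy in another gene's transcripts (x axis), for the 86 genes. Genes with under 20% of windows copied have a median of 244, and those with 60% or more one of 17.9.

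The matched pseudogenes took about as many counts as the genes themselves, somewhat more in the controls and B8 and fewer in B1, B7 and B9: 0.629%, 0.811% and 0.688% of the counts on genes in A2, A4 and A6 and 0.381%, 0.304%, 0.662% and 0.370% in B1, B7, B8 and B9, so that B8 lay among the controls here too. For 48 of the 86 genes the pseudogenes held more counts than the gene in the controls. The most abundant was *Gm9794*, matched to *Rpl23*, at 289, 383 and 324 CPM in A2, A4 and A6 and at 192, 163, 314 and 203 CPM in B1, B7, B8 and B9, and *Rpl23* itself was at 41.6, 47.8 and 40.9 CPM in the controls. *Gm14303*, matched to *Rps29*, was at 227, 332 and 261 CPM in the controls and at 116, 56.0, 240 and 64.9 CPM in B1, B7, B8 and B9. Adding the pseudogene counts to their genes before the fit put 86 of 86 log2 fold changes below 0, with a median of −0.71, of which 0 passed edgeR's adjusted threshold and 73 had an unadjusted p under 0.05, against 30.4% of all genes tested in either direction.

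The retrogene *Rps27rt* shows how alike such copies are. Its coding sequence and that of *Rps27* were identical over 252 of 252 bases, and *Rps27l* differed from *Rps27* at 60. The first 90 coding bases in the GENCODE vM21 transcripts are shown 5′ to 3′ for *Rps27* (chr3:90212522-90213651), *Rps27rt* (chr9:114982366-114982739) and *Rps27l* (chr9:66946086-66949516), with capitals where a base differs from *Rps27*, since a read pair that covers no such base here, nor in the rest of its sequence, matches both genes.
Rps27: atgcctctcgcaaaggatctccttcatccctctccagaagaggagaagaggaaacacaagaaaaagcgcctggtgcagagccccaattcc
Rps27rt: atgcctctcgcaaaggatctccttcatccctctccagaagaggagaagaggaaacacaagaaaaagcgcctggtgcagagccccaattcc
Rps27l: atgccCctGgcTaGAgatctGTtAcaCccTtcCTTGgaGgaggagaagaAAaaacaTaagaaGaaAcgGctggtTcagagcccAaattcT
*Rps27* was counted at 3.53, 3.52 and 4.2 CPM in A2, A4 and A6, *Rps27rt* at 27.7, 27.1 and 28.3 CPM and *Rps27l* at 16.1, 19.5 and 15.2 CPM. How the reads of *Rps27* and *Rps27rt* were divided was not tested. Their log2 fold changes were −0.40 and −0.72 (standard errors 0.272 and 0.226). *Rpl10-ps3* was likewise identical to *Rpl10* over 642 of 642 coding bases.

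*Rps3a1*, a small-subunit gene singled out after its values were seen, was nearly absent from 1 library. It was at 31.7, 36.4 and 31.3 CPM in A2, A4 and A6 and at 24.0, 0.667, 30.0 and 26.2 CPM in B1, B7, B8 and B9, the value in B7 resting on 43 counts. Its matched pseudogenes *Gm7600*, *Gm8960* and *Rps3a2* were low in the same mouse: *Rps3a2* was at 10.1, 12.4 and 9.75 CPM in the controls, at 6.02, 9.63 and 7.61 CPM in B1, B8 and B9, and at 0.0310 CPM in B7. *Rps3a3*, another matched pseudogene, was at 67.0, 90.3 and 75.6 CPM in the controls and at 43.3, 73.3, 73.9 and 48.1 CPM in B1, B7, B8 and B9. The family summed to 122, 155 and 131 CPM in the controls and to 81.9, 74.3, 125 and 91.4 CPM in B1, B7, B8 and B9, so the sum in B7 lay near those of B1 and B9 although *Rps3a1* did not. The log2 fold change of *Rps3a1* was −0.72, and its standard error, 0.790, was the largest of the 86 genes.

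*Rack1* and *Fau* had values below 0 as well. *Rack1*, a scaffold protein of the 40S head, was at 414, 581 and 450 CPM in A2, A4 and A6 and at 280, 223, 438 and 265 CPM in B1, B7, B8 and B9, with a log2 fold change of −0.68 (standard error 0.226, edgeR adjusted p = 0.138, DESeq2 adjusted p = 0.0566). B8 lay among the controls and the other cKO mice below them. *Fau*, whose product is cleaved to give a protein of the small subunit, had a log2 fold change of −0.88 (standard error 0.420, edgeR adjusted p = 0.182). After the correction for length and GC content *Rack1* was at −0.81 and *Fau* at −0.33. Without B8, edgeR called both genes lower.

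Among other genes of translation and ribosome production, 12 of 15 translation genes with TOP mRNAs had a log2 fold change below 0, as had 13 of 24 ribosome biogenesis factors, 6 of 10 genes of RNA polymerase I and 6 of 15 genes of mTORC1 and TOP control. The median log2 fold change was −0.25, −0.04, −0.05 and 0.08 in these lists, in that order, and −0.09, −0.03, −0.06 and −0.09 after the correction for length and GC content, which thus turned the sign of the last. Whether the lists differ was not tested. In none of these 4 lists did edgeR call a gene with all 7 mice. At an unadjusted p under 0.05, 6 of the TOP genes were lower and 1 was higher, 4 biogenesis factors were lower and 4 higher, 3 polymerase genes were lower and 1 higher, and 2 mTORC1 and TOP control genes were lower and 4 higher. Among all genes tested 13.7% were lower and 16.7% higher. DESeq2 called 1 lower gene in these 4 lists, *Tpt1*. The TOP gene *Tpt1*, which encodes translationally controlled tumor protein, was at 38.5, 43.7 and 41.3 CPM in A2, A4 and A6 and at 24.5, 14.7, 34.7 and 19.8 CPM in B1, B7, B8 and B9, with a log2 fold change of −0.82 (standard error 0.252, DESeq2 adjusted p = 0.0396). *Eif4b*, a cofactor of the eIF4A helicase and also a TOP mRNA, was at 220, 191 and 206 CPM in the controls and at 259, 311, 204 and 390 CPM in B1, B7, B8 and B9. B8 lay among the controls for *Eif4b*, and below every control but nearer to them than the other cKO mice for *Tpt1*.

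Among the biogenesis factors, the values ran from −0.76 for *Rrp9*, a protein of the U3 particle, to 0.51 for *Tsr1*, a late 40S assembly factor, and in RNA polymerase I from −0.57 for *Polr1d* to 0.38 for *Polr1a*, its largest subunit. In the mTORC1 list, *Eif4ebp1*, a translation repressor that mTORC1 inactivates, had −1.37 (standard error 0.511) at 26 to 107 counts per library, and *Larp4*, a polyA-binding protein, had 0.58 (standard error 0.213). The correction for length and GC content put *Larp4* at 0.03, *Polr1a* at −0.04, *Rrp9* at −0.36, *Tsr1* at 0.43, *Polr1d* at −0.46 and *Eif4ebp1* at −1.27. The 8 p53 response genes had a median of −0.29. *Mdm4*, an inhibitor of p53, was at 79.6, 67.9 and 79.9 CPM in A2, A4 and A6 and at 139, 163, 79.0 and 158 CPM in B1, B7, B8 and B9, with a log2 fold change of 0.83 (standard error 0.234, edgeR adjusted p = 0.138, DESeq2 adjusted p = 0.0294). *Bax*, a p53 target that promotes cell death, had −0.81 (standard error 0.285). The same correction put *Mdm4* at 0.19 and *Bax* at −0.19, and the median of the 8 genes at 0.01. All 8 snoRNA host genes tested were below 0, from −0.81 for *Epb41l4aos* to −0.26 for *Snhg1*, with a median of −0.59. After this correction their median was −0.46, with *Epb41l4aos* at −0.33 and *Snhg1* at −0.27. edgeR called none of them, 4 were lower at an unadjusted p under 0.05, against 13.7% of all genes tested, and DESeq2 called 2 lower, against 3.04%.

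The starts of these genes share sequence that the name rule did not use. RefSeq promoters (GRCm38.p6, 250 bases before to 50 after the annotated start) matched 63 of the 86 genes by symbol. A run of 8 or more C or T on the transcribed strand, within 50 bases on either side of the start, was present in 51 of the 63, or 81.0%, against 39.3% of the 27025 genes with a promoter. CTCTTTCC, which is itself a pyrimidine run, was present on the transcribed strand in 8 (12.7%, against 1.76% of all), and CCGGAAG, a sequence bound by ETS factors, on either strand in 25 (39.7%, against 9.93%). The median log2 fold change was −0.62 in the 51 genes with the pyrimidine run and −0.57 in the 12 without it. The run was thus found at genes with low, intermediate and high fold changes. The stretch from 40 bases before to 20 after the start is shown for 5 of them, in order of fold change, with the longest pyrimidine run in capitals: *Rpl38* (−1.01, chr11:114668540-114668599), *Rps18* (−0.66, minus strand, chr17:33955646-33955705), *Rpl27a* (−0.62, chr7:109519155-109519214), *Rpl7a* (−0.22, chr2:26910767-26910826) and *Rps15a* (0.27, minus strand, chr7:118116128-118116187).
Rpl38: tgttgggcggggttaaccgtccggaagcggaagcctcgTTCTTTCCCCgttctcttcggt
Rps18: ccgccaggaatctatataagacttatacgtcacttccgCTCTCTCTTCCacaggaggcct
Rpl27a: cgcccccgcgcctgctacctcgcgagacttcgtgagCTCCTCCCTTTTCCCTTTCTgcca
Rpl7a: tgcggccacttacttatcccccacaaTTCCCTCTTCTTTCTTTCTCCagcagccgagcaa
Rps15a: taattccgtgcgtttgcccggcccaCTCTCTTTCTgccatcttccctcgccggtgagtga
A match of letters is a description and does not show how the RNA starts in this tissue.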

How the data were processed

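After trimming, the authors aligned read pairs to GRCm38.p5 (TopHat2 and Bowtie2) and used HTSeq and GENCODE vM15 to count them per gene. Raw counts were deposited. Their strand and overlap options are not given in the sources used here. Entries naming no gene, 31.0% to 38.2% of read pairs, were left out. GENCODE vM21 gave positions and exon lengths and matched 52403 of 52636 identifiers. Replicates differed beyond sampling noise. The main test, edgeR 4.0.16 in R 4.3.3, was run with filterByExpr (minimum count 10), TMM, glmQLFit and glmQLFTest, Benjamini-Hochberg over 21817 genes and a threshold of 0.05, and was tested on simulated data. Standard errors were derived from the F statistic, and log2 CPM used a prior count of 2. Alternatives were DESeq2 1.42.0, limma-voom (limma 3.58.1), other filters and scalings, age, thinned counts, a length and GC correction (mgcv 1.9.3), added pseudogene counts and leaving out each mouse. Named genes were *Brn3b*, the 6 highest and 6 lowest fold changes, the 4 highest and 4 lowest mean levels per exon length over all mice, paralogs and their parents among the 86, P stalk, 5S and X chromosome genes, *Rps19bp1*, *Fau*, *Rack1*, and the highest and lowest gene of each related list. Other genes were named after their values were seen. The members and lists were chosen with earlier results of these data known.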

Additional observations from a re-analysis of the deposited data

Results flagged for a closer look

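In the 4 cKO mice, 55 values were examined for 1 mouse far from the other 3 with Dixon's test, and 4 passed its limit of 0.83, where chance gives about 2.75. All 4 were high in B8. *Rps15* was at 248 CPM in B8, against 85.5 to 111 in the other cKO mice, *Rpl7l1* at 50.4 against 39.6 to 40.03, *Rpl39* at 26.5 against 12.3 to 14.7, and *Polr1d*, a subunit shared by RNA polymerases I and III, at 34.5 against 16.9 to 19.5. For *Rps15*, *Rpl7l1* and *Polr1d* the value in B8 lay within the range of the controls, and for *Rpl39* it lay below the lowest control, 29.6 CPM. Over all 86 ribosomal protein genes, 10 passed the limit, where chance gives 4.3, and B8 was the mouse apart in all 10. These genes share their libraries, so the 10 are not independent.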

How the results depend on the processing

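No paired analysis was possible because the numbers in the names of the mice do not repeat between the genotypes, and no litter or pair is stated. The median log2 fold change of the 86 genes stayed below 0 in every alternative run, from −0.89 (controls against the P2 cKO mice) to −0.29 (P4 mice only), and from −0.85 to −0.49 with 1 mouse left out. The number of the 86 past the threshold was 0 in edgeR and 18 with DESeq2, 76 with limma-voom, which weighted B8 least, and 71 against the P2 cKO mice. Of all genes given an adjusted p, 0.00458%, 10.4%, 48.5% and 46.9% were called in these fits, in either direction. The number of the 86 ran from 0 to 72 in edgeR with 1 mouse left out. Only the fit without B8 gave any, and it called 46.7% of all genes. In DESeq2 the number was 1 without A2, 71 without B8 and 0 without any other mouse, so its calls depended on each mouse. Without A2 and without B8, DESeq2 called 2.95% and 39.9% of the genes given an adjusted p. The mean share of counts was 1.39% in controls and 0.870% in cKO mice with pseudogenes added, and 0.775% in controls as a share of nuclear protein-coding counts. Both shares grow by construction. Of 51 named genes, 43 kept their sign in all 20 alternatives. The other 8 included the highest values of the 86, *Rpl5* and *Rps15a*. *Rps4l*, which was not counted among the 51, went from −0.41 to 0.17 with the GC content and length correction. With the GC content and length correction, *Rps6* was 0.44, *Rpl17* 0.017, *Rpl4* 0.018, *Rps27* 0.022, *Rps15a* −0.032 and *Polr1a* −0.036. With pseudogenes added, *Rpl9* was −0.47, *Rps15a* −0.12 and *Rpl5* −0.37. *Rpl9* was −0.10 with limma-voom, −0.042 against the P2 cKO mice, −0.018 with thinned counts and from −0.11 to 0.14 with 1 mouse left out, and *Rpl5* was −0.027 in the P4 mice only. The cause was not tested. Depth limits the genes with few counts, such as *Rpl10-ps3* with 10 to 35.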

Other observations

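Markers of other cell types in the dorsal midbrain gave these values. Dividing-cell markers (5 genes, led by *Top2a*) summed to 58.9, 58.7 and 42.7 CPM in the controls and to 84.4, 64.9, 61.7 and 46.7 CPM in B1, B7, B8 and B9. Oligodendrocyte lineage markers (6 genes, led by *Olig1*) summed to 346 to 401 CPM in the controls and 293 to 412 CPM in cKO mice, endothelial markers (5 genes, led by *Cldn5*) to 107.7 to 173 and 95.6 to 150 CPM, and meningeal markers (5 genes, led by *Col3a1*) to 175 to 395 and 216 to 406 CPM. Choroid plexus markers summed to under 5 CPM in every library. The groups overlapped in each of these sums, and none of these markers was at 0 in all libraries. edgeR called none of these genes with all 7 mice, and DESeq2 called 1 oligodendrocyte lineage gene and 1 dividing-cell gene higher. At an unadjusted p under 0.05 in edgeR, these were also the only lists with a gene, 1 higher in each. Among all genes tested 16.7% were higher at that cutoff.

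The ratio of pseudogene counts to gene counts was 1.02, 1.04 and 1.04 in A2, A4 and A6, 1.03 in B8, and 0.978, 0.930 and 0.924 in B1, B7 and B9.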
